A study of Mus musculus with 8 samples.

Results

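Dbp, Tef, Hlf, Nfil3, Bhlhe40, Bhlhe41 and Ciart are transcription factors and repressors through which the circadian clock reaches its output genes, and they were taken by name. They had 8 of the 35557 probe sets on the array, 1 for each gene and 2 for Ciart (probe sets 10373452 and 10500272). Striatal RNA came from 8 male C57BL/6 mice aged 6 weeks, in 4 groups of 2, and each mouse had its own Affymetrix array. Control mice received saline by intraperitoneal injection once daily for 4 weeks. MPTP mice received 20 mg/kg of MPTP, a toxin that damages dopamine neurons projecting to the striatum, every 24 h for 4 weeks. Acupoint mice received the same MPTP and needling at GB34 and LR3, points on the hind limb, and non-acupoint mice received the same MPTP and needling at the hips. Both needled groups had 14 sessions, 48 h apart, with needling 2 h after MPTP. The hour of day at which tissue was taken is not given in the sources used here.

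As background, the activators CLOCK and BMAL1 (the product of Arntl) bind the E-box, with the core CACGTG, and drive genes that peak at set times of day. DBP, TEF and HLF form the PAR bZIP family and activate genes through the D-box, a site that NFIL3 also binds and represses. BHLHE40 and BHLHE41 (also called DEC1 and DEC2) are bHLH repressors that compete at E-boxes, and CIART (CHRONO) represses CLOCK and BMAL1 directly.

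The E-box stands in the promoters of 3 of the 6 genes with an entry in the RefSeq table (GRCm38.p6), and these promoters are shown because they held it. Whether the clock acts on these genes through these sites was not tested. The windows searched were the 250 bases before each annotated start, on both strands. Some windows lie inside the annotated span of their own gene. These are all 250 bases for Nfil3 and for Tef's second start, 147 for Dbp and 29 for Ciart. CACGTG was present in 4 of the 7 windows of these 6 genes, and in 6.02% of all 32851 windows of the table. CACGTG began at -116, -58 and -44 from the start of Ciart, at -153 in Bhlhe41, and at -127 and -138 in the windows of Tef's 2 listed starts. None of the 7 windows held CACGTT (3.85% of all windows, its complement AACGTG included), the D-box TTATGTAA (0.819%, its complement TTACATAA included) or TTACGTAA (0.113%). Dbp, Hlf and Nfil3 thus had none of these letters in their windows, which says nothing about sites elsewhere in them. Below, the E-boxes are in capitals. The Ciart stretch (chr3:95882258-95882478, minus strand) covers -250 to -30, the Bhlhe41 stretch is chr6:145865421-145865670 on the minus strand, and the Tef stretch is chr15:81802423-81802672 on the plus strand. The Ciart and Tef stretches also lie in or over annotated long noncoding RNA genes.
Ciart: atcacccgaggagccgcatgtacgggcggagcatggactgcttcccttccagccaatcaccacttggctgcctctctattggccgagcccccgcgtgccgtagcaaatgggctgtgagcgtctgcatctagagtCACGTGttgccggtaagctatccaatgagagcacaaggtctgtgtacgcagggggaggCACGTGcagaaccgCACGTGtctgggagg
Bhlhe41: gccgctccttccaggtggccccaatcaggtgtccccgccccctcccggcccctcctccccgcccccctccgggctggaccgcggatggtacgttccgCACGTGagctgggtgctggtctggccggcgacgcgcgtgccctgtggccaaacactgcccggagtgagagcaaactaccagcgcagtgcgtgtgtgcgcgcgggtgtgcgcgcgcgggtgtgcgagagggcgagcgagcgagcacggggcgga
Tef: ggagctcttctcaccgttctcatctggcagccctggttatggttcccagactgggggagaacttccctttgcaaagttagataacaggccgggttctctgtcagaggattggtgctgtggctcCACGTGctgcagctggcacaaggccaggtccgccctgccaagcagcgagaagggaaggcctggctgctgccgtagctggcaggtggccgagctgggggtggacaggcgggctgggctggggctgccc

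Values are log2 intensities as the authors deposited them, so a difference of 1 is a 2-fold difference, and levels were compared only within a probe set. All 8 probe sets were among the 16342 tested. Array medians lay between 6.02 and 6.12. The arrays differed in tissue markers within groups. Markers of thalamus, septum and pallidum, regions that border the striatum, averaged over 14 of 14 genes, lay 1.80 above the control mean in MPTP mouse 1 and 1.32 above it in non-acupoint mouse 2. In the other 4 treated mice they lay between -0.66 and 0.60. The genes of this list did not all move together: MPTP mice had higher means than controls for 11 and lower for 3. Trpc4 was at 6.36 in MPTP mouse 1, against 8.50 and 8.71 in the controls. Lhx2 was at 7.01 there, against 7.95 and 8.02 in the controls. Markers of striatal neurons (14 of 16 genes) lay at -1.92 relative to the controls in MPTP mouse 1 and between -0.59 and 0.35 in the other treated mice. Drd1, the dopamine D1 receptor, was at 7.93 in MPTP mouse 1 and between 9.61 and 10.68 in the other 7 arrays, and none of the arrays lacked it. Choroid plexus markers (13 of 14 genes) were 2.18 to 2.94 above controls in MPTP mouse 1, acupoint mouse 1 and both non-acupoint mice, and within -0.17 to 0.10 in MPTP mouse 2 and acupoint mouse 2. Array means of ependymal, astrocyte, oligodendrocyte, microglial, endothelial and cortical markers stayed within -0.68 to 0.38 of the controls. Single genes moved more: cortical Slc17a7 was at 9.47 in both controls and at 6.61 to 8.84 in the needled mice. Of the 8 cortical genes tested, 3 had higher and 5 lower means in all treated mice than in controls. All 10 ependymal genes had lower means in MPTP mice than in controls. In bulk tissue, fewer cells of a type and less RNA per cell cannot be told apart.

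Across the family, 5 of the 8 probe sets (Dbp, Hlf, Bhlhe41 and both of Ciart) were higher in all 6 MPTP-treated mice than in both controls. In the same comparison 3.72% of all 16342 probe sets lay wholly above the controls. Tef and Bhlhe40 were above both controls in 5 of the 6 treated mice, and Nfil3 in 1 of 6. The median difference of the 8 probe sets between all treated mice and controls was 0.38, against -0.0003 over all probe sets. None of the 8 passed an adjusted p of 0.05 in limma, where 0% of all probe sets did, and 4 had an unadjusted p under 0.05, all higher (3.38% of all probe sets, and 1.87% when only higher ones were counted). With 2 mice in each group the tests had 4 residual degrees of freedom, so the size and spread of each member are given below.

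**Figure D1:**
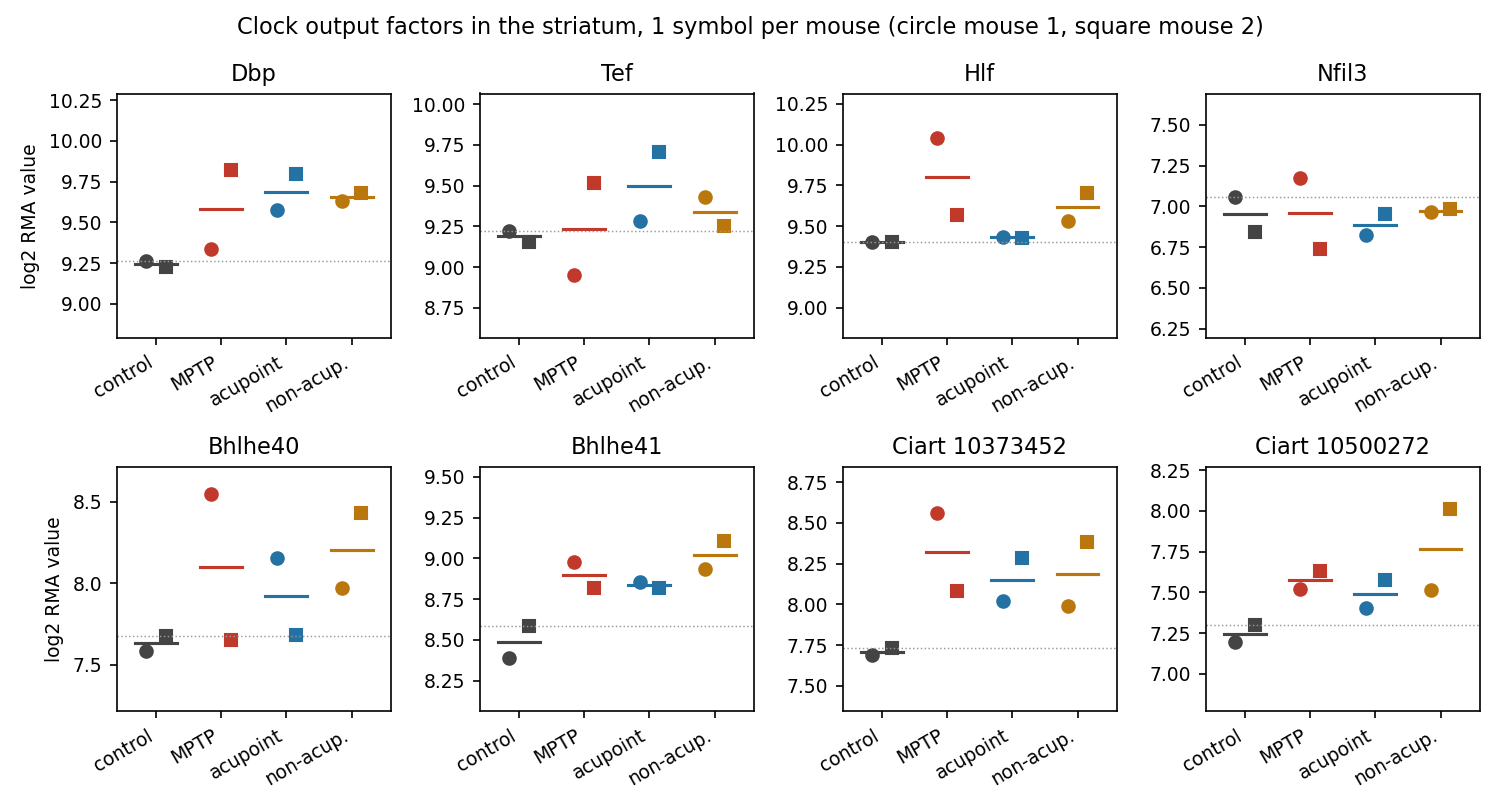
Log2 intensity of each of the 8 probe sets (1 panel each, y axis in log2 units) in every mouse, by group on the x axis; bars mark group means and the dotted line is the higher control. In the panels of Dbp, Hlf, Bhlhe41 and both Ciart probe sets all 6 treated mice lie above the dotted line, and in that of Nfil3 only 1 does.

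Dbp, the PAR bZIP activator with the strongest daily rhythm in many tissues, was at 9.26 and 9.23 in the controls. It was at 9.34 and 9.82 in the MPTP mice, 9.58 and 9.79 in the acupoint mice and 9.63 and 9.68 in the non-acupoint mice. Every treated mouse was above both controls, MPTP mouse 1 only just, and MPTP mouse 2 and acupoint mouse 2 were the highest. The controls differed from each other by 0.033, the non-acupoint mice by 0.046 and the MPTP mice by 0.48. Over all treated mice the mean was 0.40 above the controls (SE 0.14, 95% interval 0.07 to 0.72, 1.32-fold, limma adjusted p = 0.979). Against controls, MPTP alone gave 0.34 (SE 0.17, 95% interval -0.06 to 0.73), and this was 0.58 without MPTP mouse 1 and 0.09 without MPTP mouse 2.

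Tef, the PAR bZIP factor with a shallower rhythm in many tissues, had control values of 9.22 and 9.15, and values of 8.95 and 9.52 after MPTP alone. It was at 9.28 and 9.71 in the acupoint mice and 9.43 and 9.25 in the non-acupoint mice. MPTP mouse 1 was the lowest of the 8 and acupoint mouse 2 the highest, so the MPTP group lay on both sides of the controls. The mean difference of all treated mice from controls was 0.17 (SE 0.18, 95% interval -0.25 to 0.58), within the spread between mice. Without MPTP mouse 1 it was 0.26, and without MPTP mouse 2 it was 0.07.

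Hlf, the third PAR bZIP activator, was at 9.40 in both controls, and the pair differed by 0.00016. It was at 10.04 and 9.56 in the MPTP mice, 9.43 in both acupoint mice and 9.53 and 9.70 in the non-acupoint mice. MPTP mouse 1, which had the lowest Dbp and Tef of the treated mice, had the highest Hlf. All treated mice exceeded both controls, but the acupoint mice did so by a mean of 0.03 only. Over all treated mice the difference from controls was 0.21 (SE 0.13). MPTP was 0.40 above controls (SE 0.16, 95% interval 0.02 to 0.78, limma adjusted p = 0.93). This became 0.16 without MPTP mouse 1. Without MPTP mouse 2, which leaves mouse 1 alone in its group, it was 0.63 with a limma adjusted p of 0.021. In that fit 9.83% of all probe sets were called, and the other member called was Ciart probe set 10373452 (0.85, limma adjusted p = 0.034). The lone mouse is assumed there to vary like the other groups, and it is the array with the lowest striatal markers.

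Nfil3, the repressor that competes with the PAR bZIP factors, had control values of 7.06 and 6.85, and values of 7.18 and 6.74 after MPTP alone. It was at 6.82 and 6.95 in the acupoint mice and 6.96 and 6.98 in the non-acupoint mice. The groups overlapped except for the acupoint and non-acupoint mice, and MPTP mouse 1 was the highest and mouse 2 the lowest of the 8. All treated mice differed from controls by -0.01 (SE 0.13), or 0.02 after median centring, with a range over the 8 arrays of 0.44, the narrowest of the 8 probe sets.

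Bhlhe41, the E-box repressor DEC2, had control values of 8.39 and 8.59, and values of 8.98 and 8.82 after MPTP alone. It was at 8.85 and 8.82 in the acupoint mice and 8.93 and 9.11 in the non-acupoint mice. All 6 treated mice were above both controls, and mice of the same group differed by at most 0.19. Over all treated mice it was 0.43 above controls (SE 0.097, 95% interval 0.20 to 0.66, 1.35-fold, limma adjusted p = 0.979). Its unadjusted p was the 18th smallest of the 16342, with no probe set past the adjusted threshold. MPTP alone was 0.41 above controls (SE 0.12, 95% interval 0.13 to 0.69), 0.33 without MPTP mouse 1 and 0.49 without MPTP mouse 2. The F-test over the 4 groups also gave Bhlhe41 the lowest unadjusted p of the members and no call: 3.71% of all probe sets were under 0.05 unadjusted, and 0% adjusted.

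Bhlhe40, the paralog DEC1, which neuronal activity and other stimuli also induce, was at 7.58 and 7.67 in the controls. It was at 8.55 and 7.65 in the MPTP mice, 8.15 and 7.68 in the acupoint mice and 7.97 and 8.43 in the non-acupoint mice. MPTP mouse 2 and acupoint mouse 2 were at the level of the controls, and the other 4 treated mice were above it. Mice of the same treated group differed by 0.46 to 0.89, against medians over all probe sets of 0.12 to 0.20 in those groups. The difference of all treated mice from controls was 0.44 (SE 0.25, 95% interval -0.16 to 1.04). The MPTP difference was 0.47, and it was 0.02 without MPTP mouse 1 and 0.92 without MPTP mouse 2.

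Ciart, the repressor CHRONO, was measured by a pair of probe sets. The platform annotation gives both the same gene ID and transcripts but no probe positions, so it was not checked that both lie at the Ciart locus, and their values are kept apart. Probe set 10373452 was at 7.69 and 7.73 in the controls, 8.56 and 8.08 in the MPTP mice, 8.02 and 8.29 in the acupoint mice, and 7.99 and 8.38 in the non-acupoint mice. Probe set 10500272 was at 7.19 and 7.30 in the controls, 7.52 and 7.63 in the MPTP mice, 7.41 and 7.57 in the acupoint mice, and 7.52 and 8.01 in the non-acupoint mice. With either probe set every treated mouse was above both controls. They ranked the treated mice differently, with MPTP mouse 1 highest by the first and non-acupoint mouse 2 by the second. Over all treated mice the differences from controls were 0.51 (SE 0.16, 95% interval 0.13 to 0.90) and 0.37 (SE 0.14, 95% interval 0.04 to 0.69), both with a limma adjusted p of 0.979. For MPTP alone they were 0.61 (SE 0.20, 95% interval 0.14 to 1.08) and 0.33 (SE 0.17). Without MPTP mouse 1 the first was 0.37.

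**Figure D2:**
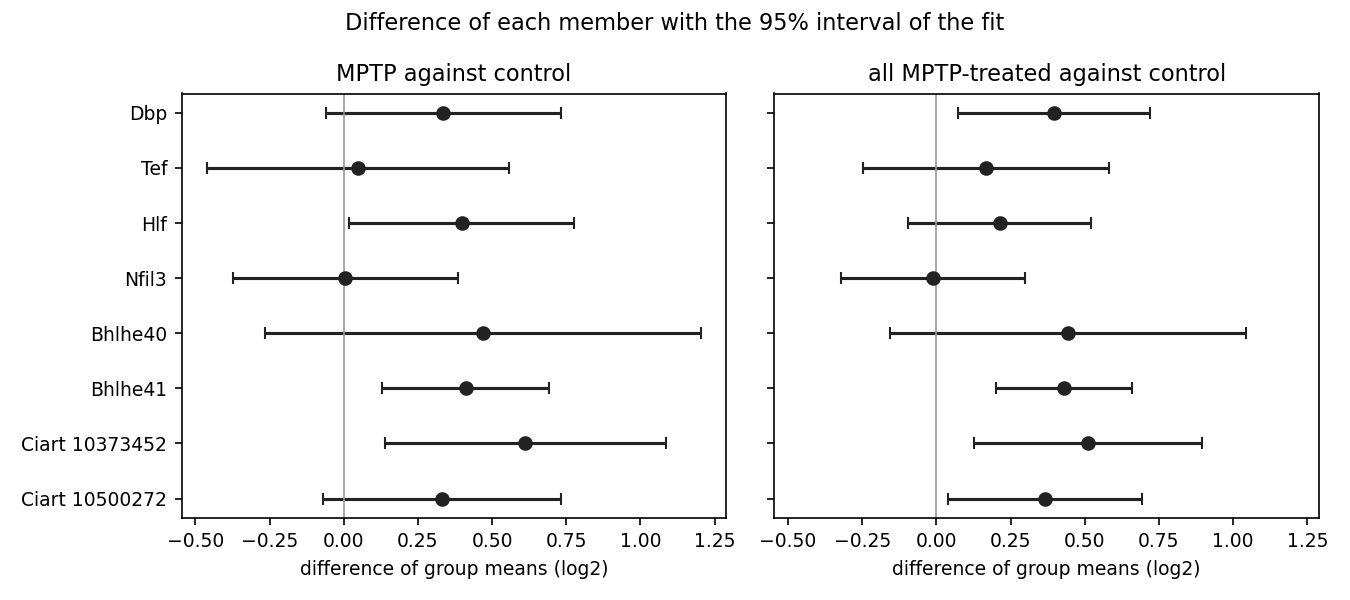
Difference between groups (x axis, log2 units, with its 95% interval from limma) for each of the 8 probe sets on the y axis, by comparison. The intervals of Dbp, Bhlhe41 and both Ciart probe sets lie above 0 for all treated mice against controls, with no correction for the number of probe sets tested.

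Set against controls, MPTP without needling gave a higher mean for all 8 probe sets, with a median difference of 0.37 against 0.015 over all probe sets, of which 54.3% were higher. The controls are the same 2 arrays as in the comparison of all treated mice. The MPTP mice lay wholly above the controls for 5 of the 8 (17.3% of all probe sets did). None passed the adjusted threshold in limma (0% of all probe sets), and 3 had an unadjusted p under 0.05, all higher (3.99% of all, 2.11% when only higher ones were counted). Those 3 were Bhlhe41, Ciart probe set 10373452 and Hlf.

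Needling was compared with MPTP alone to ask whether it shifts the striatal response, and no member was called. Acupoint mice had lower means than MPTP mice for 6 of 8 probe sets, with a median difference of -0.08 (-0.04 over all probe sets, of which 40.3% were higher in acupoint mice). Only Hlf did not overlap between these groups (27.3% of all probe sets did not), at -0.37 (SE 0.16, 95% interval -0.75 to 0.01, limma adjusted p = 0.90). That comparison had no unadjusted p under 0.05 among members (3.6% of all) and 0% called over all probe sets. Without MPTP mouse 2 the Hlf difference was -0.61 with a limma adjusted p of 0.026, and without MPTP mouse 1 it was -0.13. The former was in a fit that called 8.89% of all probe sets.

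Non-acupoint mice had higher means than MPTP mice for 6 of 8 probe sets, with a median of 0.09 (-0.007 over all, 48.5% higher). None was without overlap (33.1% of all), none had an unadjusted p under 0.05 (6.58% of all), and 0% of all probe sets were called by limma. Between needling sites, acupoint mice were lower for 6 of 8, with a median of -0.13 (-0.03 over all, 41.7% higher). Hlf, Nfil3 and Bhlhe41 did not overlap there, all lower at the acupoints (38.5% of all probe sets did not overlap). None of the members had an unadjusted p under 0.05 (3.22% of all) and 0% of probe sets were called. Bhlhe40 and Ciart probe set 10500272 both differed by -0.28, within the spread between mice: with 1 array left out Bhlhe40 ranged from -0.52 without acupoint mouse 1 to -0.046 without acupoint mouse 2. Ciart probe set 10500272 ranged from -0.52 without non-acupoint mouse 1 to -0.027 without non-acupoint mouse 2. These comparisons use the same MPTP or needled arrays. Without MPTP mouse 1 the acupoint difference of Bhlhe40 turned from -0.18 to 0.27, and that of Ciart probe set 10373452 from -0.17 to 0.07. Without MPTP mouse 2 the acupoint difference of Dbp was 0.35, and without MPTP mouse 1 it was -0.14.

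Among the 7 genes (Ciart by probe set 10373452), 21 pairs were correlated across the 8 arrays, and none passed 0.05 after Benjamini-Hochberg adjustment. Dbp and Tef had r = 0.80 (exact permutation p = 0.016, adjusted 0.082) and rho = 0.83. The 2 arrays farthest from the median of Dbp were both controls, and r among the 6 treated mice alone was 0.91. Dbp and Tef were both high in MPTP mouse 2 and acupoint mouse 2, and MPTP mouse 1 had the lowest value of each among treated mice. Bhlhe41 and Ciart had r = 0.83 (exact permutation p = 0.011, adjusted 0.074), rho = 0.74, and r = 0.74 without control mouse 1 and non-acupoint mouse 2, the extreme arrays for Bhlhe41. With Ciart probe set 10500272, a relation added after seeing the data, Bhlhe41 had r = 0.84 (exact permutation p = 0.011, adjusted 0.077 over 28 pairs of probe sets), rho = 0.64, and r = 0.61 without the same arrays. The 2 Ciart probe sets had r = 0.71 with each other (exact permutation p = 0.042, adjusted 0.15 over the 28), rho = 0.81, and r = 0.86 without MPTP mouse 1 and control mouse 1. Hlf and Bhlhe40 had r = 0.80 (exact permutation p = 0.0096, adjusted 0.074), with rho = 0.74, and r was 0.13 without MPTP mouse 1 and non-acupoint mouse 2 and so rests on them. These arrays share the group differences and tissue markers given above.

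Bhlhe40 moved with the tissue markers from array to array. Against the mean of the thalamus, septum and pallidum markers it had r = 0.95 (exact permutation p = 0.00025, adjusted 0.0040 over 16 relations) and rho = 0.88 (exact permutation p = 0.0072, adjusted 0.086). Without the 2 most extreme arrays r was 0.79. Against the striatal neuron markers r was -0.84 (exact permutation p = 0.00084, adjusted 0.0067), rho was -0.86 and r without the 2 extreme arrays was -0.65. These were the only 2 of the 16 relations past 0.05 after adjustment by Pearson's r, and none was by Spearman's rho. Tef had r = 0.76 with the striatal neuron markers (exact permutation p = 0.028, adjusted 0.075), and its rho was 0.60. Nfil3 had r = -0.75 with them (exact permutation p = 0.027, adjusted 0.075), and its rho was -0.62. Without the 2 extreme arrays r was 0.65 for Tef and -0.33 for Nfil3. Bhlhe40 was at 7.97 to 8.55 in the 4 arrays with high choroid plexus markers and at 7.58 to 7.68 in the other 4. No correlation is given there because those markers fall into separate clusters. The share of all probe sets that separate these arrays in the same way was not counted. Within treated groups, the mouse with more of the bordering-region markers also had more Bhlhe40 in 3 of 3 groups. Bhlhe41 and Hlf did so too in 3 of 3, by only 0.006 for Hlf in the acupoint mice. Tef did the reverse in 3 of 3. How many of all probe sets do either in 3 of 3 was not counted. Bhlhe41 had rho = 0.74 with these markers (exact permutation p = 0.046, adjusted 0.18). Its r was 0.58, and 0.12 without the 2 extreme arrays. Against the striatal neuron markers its rho was -0.76 (exact permutation p = 0.037, adjusted 0.18). With the bordering-region mean as a covariate the Bhlhe40 difference of all treated mice from controls was 0.24, and with the choroid plexus mean it was -0.05. The part of tissue content in the Bhlhe40 difference was not tested further.

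**Figure D3:**
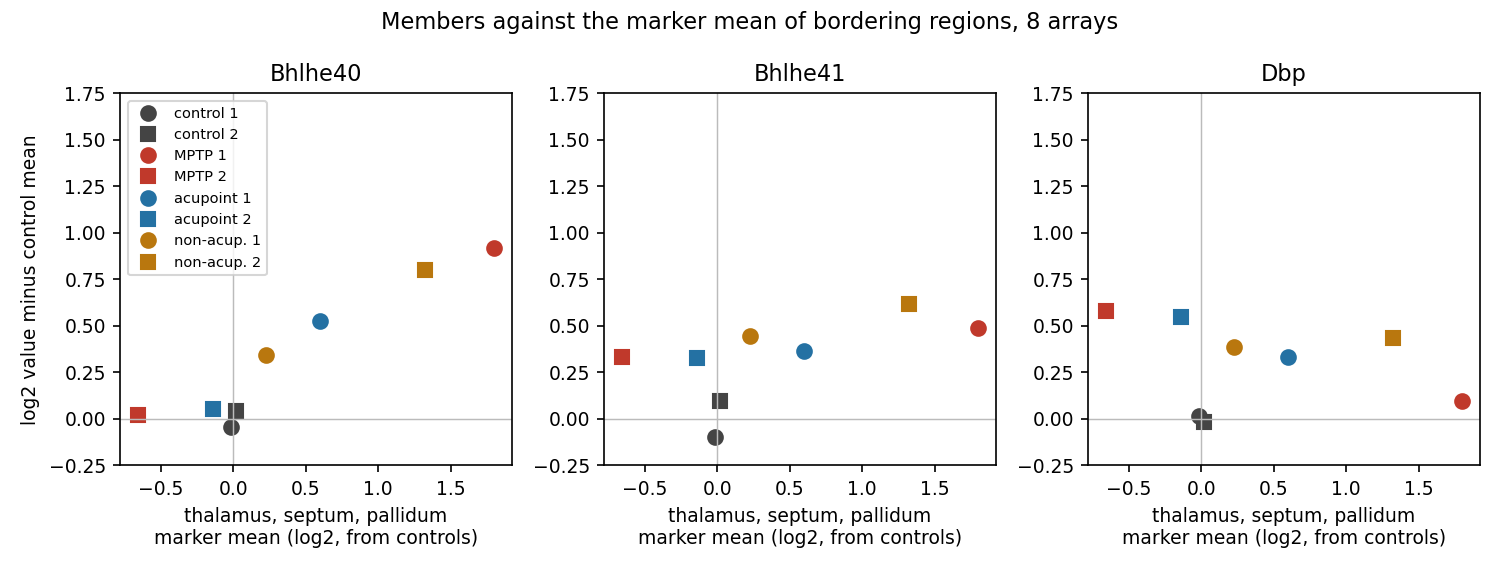
Bhlhe40, Bhlhe41 and Dbp in each of the 8 arrays (y axis, log2 value minus the control mean) against the mean of thalamus, septum and pallidum markers (x axis, log2, relative to controls). Bhlhe40 climbs with the markers (r = 0.95), and Bhlhe41 does so less closely (r = 0.58). For Bhlhe41 and Dbp the 6 treated mice lie above both controls at every marker level.

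For the other members the same covariates left the direction of all treated mice against controls as it was. With the bordering-region covariate the difference of all treated mice from controls was 0.48 for Dbp, 0.30 for Tef, 0.12 for Hlf, 0.39 for Bhlhe41 and 0.42 and 0.36 for the Ciart probe sets. With the choroid plexus covariate it was 0.62 for Dbp, 0.51 for Tef, 0.04 for Hlf, 0.35 for Bhlhe41 and 0.40 and 0.41 for Ciart. The Hlf difference without a covariate was 0.21. Choroid plexus markers were low in both controls and high in both non-acupoint mice, so this covariate partly follows the groups. The part of tissue content in the differences of these members was not tested. Hlf had r = -0.91 with striatal neuron markers (exact permutation p = 0.015, adjusted 0.075), with rho = -0.57, and r = 0.31 without the 2 extreme arrays. Without MPTP mouse 1 and non-acupoint mouse 2, the arrays richest in bordering-region markers, 6 of 8 probe sets (Tef added to the same 5) lay above both controls in the remaining 4 treated mice, against 6.54% of all probe sets.

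The members' upstream genes were read from a list of 18 core clock genes, of which 16 were tested and 0 were called. Against controls, all treated mice had higher means for 11 and lower for 5, with a median of 0.15 (49.9% of all probe sets were higher). Of the 16, 4 had an unadjusted limma p under 0.05, all higher (3.38% of all probe sets, 1.87% when only higher ones were counted). In all treated mice 6 of the 16 lay wholly above the controls (3.72% of all probe sets did). Clock, Cry2, Nr1d1, Nr1d2 and Per3 were among them. Rora of this list is also a marker of thalamus, septum and pallidum, and Rorb is also a cortical marker. The array mean of the tested clock genes was 0.28 above controls in MPTP mouse 1 and 0.22 in non-acupoint mouse 2. In the other treated mice it was 0.12 to 0.13. The part of tissue content in the clock gene differences was not tested. Per2, a repressor of CLOCK and BMAL1, was at 6.65 and 6.63 in controls, 6.62 and 7.01 in MPTP mice, 7.04 and 7.16 in acupoint mice and 7.18 and 7.07 in non-acupoint mice. MPTP mouse 1 was thus at the control level and the other treated mice were above it (difference of all treated mice 0.37, SE 0.12). Nr1d2, the repressor REV-ERB beta, was at 9.37 and 9.57 in controls and between 9.66 and 10.05 in the treated mice, all of which were above both controls (0.39, SE 0.12). Arntl, the activator that peaks opposite to Dbp in most tissues, had a difference of -0.13, with values of 8.57 and 8.54 in controls and 8.16 to 8.66 in treated mice. Cry1, a late-peaking repressor, differed by -0.02. Per1, whose levels overlapped with the controls, differed by 0.12.

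**Figure D4:**
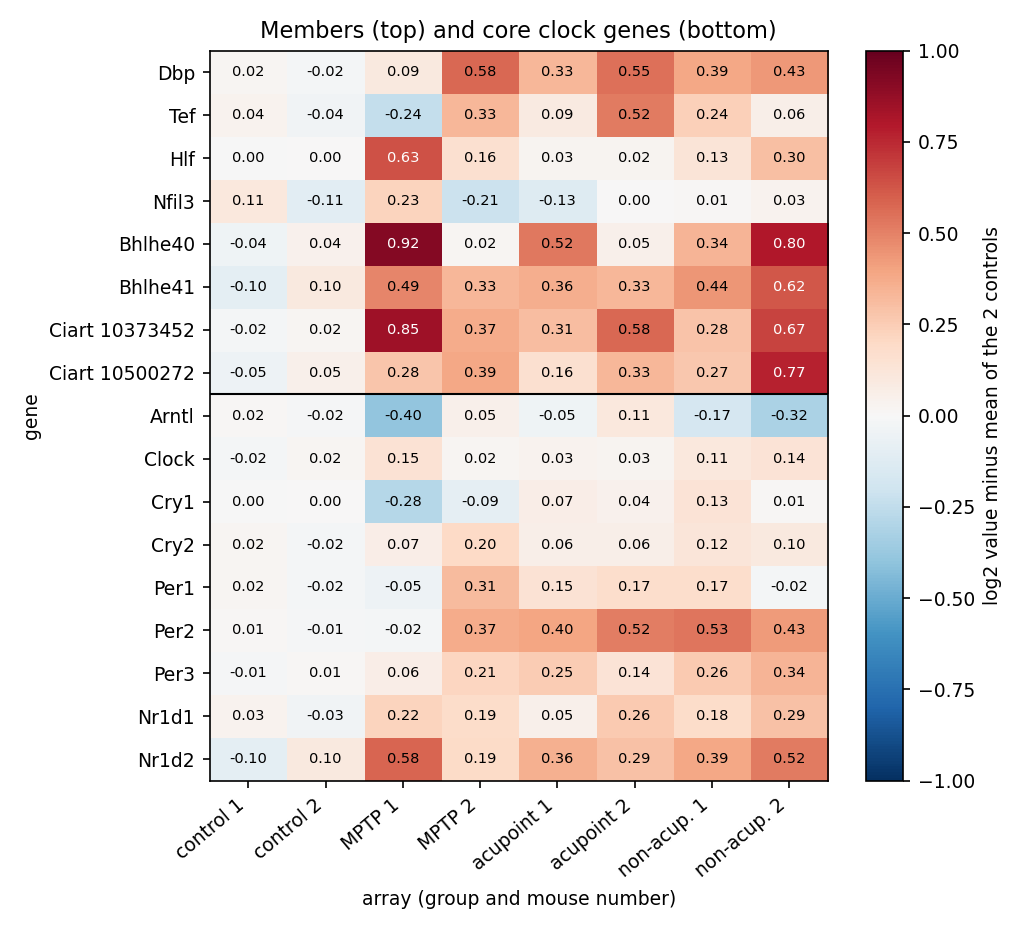
Log2 value minus the control mean (colour scale, log2 units) for the 8 member probe sets and 9 of the 16 tested core clock genes (rows) in the 8 mice (columns). Dbp, Hlf, Bhlhe40, Bhlhe41, both Ciart probe sets, Clock, Cry2, Nr1d1, Nr1d2 and Per3 are above the control mean in all 6 treated mice. Arntl is below it in 4 of 6.

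Target genes and relatives were also counted. Of 12 known PAR bZIP targets only 2 were tested, and the differences of all treated mice from controls were 0.07 for Pdxk, pyridoxal kinase, and 0.13 for Alas1, which starts haem synthesis. Of 7 C/EBP genes, bZIP relatives that can bind overlapping sites, 5 were tested, with 1 higher and 4 lower means (median -0.07). Of the 9 Hes and Hey genes, bHLH relatives of Bhlhe40, all were tested, with 4 higher and 5 lower means. Immediate early genes, which neuronal activity induces, had lower means in treated mice for 24 of 26 (median -0.41, 10 with an unadjusted p under 0.05), whereas Bhlhe40 had a higher one. Of 17 glucocorticoid-induced genes 16 were tested, and 14 had higher means (median 0.12, 4 with an unadjusted p under 0.05, all higher). Over all probe sets, 49.9% had a higher mean in all treated mice than in controls. An unadjusted limma p under 0.05 was reached by 3.38% of them, and by 1.87% when only higher ones were counted. None of these lists had a member past the adjusted limma threshold. Per1 is in 3 of these lists.

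By the root mean square difference of centred log2 values over the 8 arrays, the tested gene most like Bhlhe41 was Jmy (0.062), followed by the clock gene Nr1d2 (0.065), against a root mean square of 0.21 for Bhlhe41 about its own mean. The closest to Dbp were Slc2a5 (0.086) and Mpp7 (0.091), and the closest to Tef were Rhobtb2 (0.046) and Zfp503 (0.078). For Hlf they were Pagr1a (0.023) and Gdap1l1 (0.036), and for Bhlhe40 they were Me1 (0.055) and Arid5b (0.062). For Ciart they were Deptor (0.085) by probe set 10373452 and Cep76 (0.079) by probe set 10500272. Nr1d2 was the only core clock gene among the 3 closest to any probe set searched, and Nfil3, whose range was under 0.5, was not searched.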

How the data were processed

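Striatal RNA of 8 mice (2 for each group, separate animals per the labels) was hybridised to 1 array each, from 300 ng of RNA per the labels' protocols. The authors deposited log2 values, processed by RMA in Affymetrix Expression Console per the submitters' processing notes (version not given in the sources used here). RMA normalises arrays to a common distribution, so a shift shared by most genes is removed. Array data give no read depth, so precision is limited by how many arrays there are. Probe sets with exactly 1 gene symbol in the platform annotation (21789 of 35557, with 1621 having several and 12147 none) and a mean at or above their 25th percentile (5.25) were tested, 16342 in all. RefSeq (GRCm38.p6) matched 21698 of the named probe sets by gene ID.

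limma 3.58.1 (R 4.3.3) was fitted with 4 group means over all 8 arrays, with Benjamini-Hochberg adjustment over all 16342 probe sets and a call at 0.05. The comparisons were each pair given in the report, the mean of the 3 treated groups against controls, and an F-test. The script was tested on simulated data. Exact permutation tests over all arrangements of the 8 arrays were used for correlations (scipy 1.17.1). All members are named, with the 3 closest genes of each probe set whose range reached 0.5, and genes of the lists. The members and lists were chosen with earlier results of these data known. Alternatives were other normalisations, filters, weights, covariates, a replicate block and single arrays left out. The relations to tissue markers, those of the second Ciart probe set and the joint omission of 2 arrays were chosen after seeing the data.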

Additional observations from a re-analysis of the deposited data

How the results depend on the processing

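No member was called in any comparison or setting except without MPTP mouse 2, so the leave-one-out range of members called was 0 to 2 for MPTP against control and 0 to 1 for acupoint against MPTP. With the mouse number as a block, 0 members were called in every comparison. Nothing in the labels says that a mouse number is shared between groups. Correlations of deviations between same-numbered mice ran from -0.49 to 0.40. They cannot decide whether the numbers pair the samples, because tissue markers also differ between mice of a group. Of 432 values under settings other than leaving out 1 array, 405 kept direction and call and 27 reversed, none of them called. For MPTP against control Nfil3 became -0.068 with the bordering-region (thalamus, septum and pallidum) covariate, -0.064 with the choroid plexus covariate and -0.21 with MPTP mouse 1 and non-acupoint mouse 2 left out, a setting chosen after seeing the data. For all treated mice Nfil3 became 0.022 after median centring and Bhlhe40 -0.048 with the choroid plexus covariate. For acupoint against MPTP without those 2 arrays the values were -0.14 for Dbp, -0.024 for Tef, 0.15 for Nfil3, 0.27 for Bhlhe40, 0.016 for Bhlhe41 and 0.068 for Ciart 10373452. For non-acupoint against MPTP Nfil3 was -0.025 after quantile normalisation, -0.0095 with the bordering-region covariate and -0.084 with the choroid plexus covariate, which put Bhlhe40 at -0.35. Without the 2 arrays Dbp was -0.19, Tef -0.089 and Ciart 10500272 -0.11. For acupoint against non-acupoint Ciart 10373452 was 0.030 after quantile normalisation, 0.062 and 0.053 with the bordering-region and choroid plexus covariates and 0.16 without the 2 arrays. Dbp was -0.061 and -0.15 with those covariates, and with the choroid plexus covariate Tef was -0.11, Nfil3 7.6e-05 and Bhlhe40 0.11. Leaving out 1 array at a time kept 290 of 320 values, reversed 27 and made 3 calls. The leave-one-out ranges that crossed 0 for MPTP against control were -0.24 to 0.33 for Tef and -0.21 to 0.23 for Nfil3, and for all treated mice -0.12 to 0.094 for Nfil3. For acupoint against MPTP they were -0.14 to 0.35 (Dbp), -0.02 to 0.54 (Tef), -0.29 to 0.15 (Nfil3), -0.63 to 0.27 (Bhlhe40), -0.14 to 0.02 (Bhlhe41) and -0.41 to 0.07 (Ciart 10373452). For non-acupoint against MPTP they were -0.17 to 0.32 (Dbp), -0.18 to 0.39 (Tef), -0.42 to 0.052 (Hlf), -0.20 to 0.24 (Nfil3), -0.35 to 0.55 (Bhlhe40), -0.37 to 0.10 (Ciart 10373452) and -0.059 to 0.44 (Ciart 10500272). For acupoint against non-acupoint they were -0.079 to 0.14 (Dbp), -0.058 to 0.37 (Tef) and -0.23 to 0.16 (Ciart 10373452). The count of member probe sets wholly above controls in all treated mice was 5 to 6 with 1 array left out. It was 4 after quantile normalisation, where Hlf overlapped. The share of all probe sets was not counted in these settings, and leaving out an array cannot lower such a count. The cause of these shifts was not tested.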
